A study of Drosophila melanogaster with 8 samples.

Results

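A set of 51 Drosophila melanogaster genes listed under a CG number lay far on the positive side of a comparison between larval and adult RNA. A CG number is the systematic identifier given when the fly genome was annotated, and it stays the symbol of a gene until a name taken from a phenotype or a product is adopted. Some of the 51 also carry older names. The genes were chosen by their measured values: a CG number as the symbol of the spot in the probe table, a mean log2 ratio of 2 or more, and a positive ratio on all 8 arrays. They made up 51 of 4695 CG-named genes (1.09%) and of 10658 genes measured in all. Of 5963 genes with another name, 74 (1.24%) met the same thresholds, and 53 CG-named genes met them on the negative side, at -2 or less. Across all 10658 genes, 22.3% were positive on all 8 arrays. Because the ratio chose the 51 genes, their ratios are a description and carry no test.

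Each of the 8 spotted arrays held RNA of Canton S larvae and adults. Canton S is a laboratory strain of wild-type flies. Both sources were mixtures of stages, and the labels describe separately processed portions of 1 master homogenate, so the arrays repeat the measurement and not the animals. Larvae were in channel 1 on replicates 1, 3, 6 and 8, and adults were in channel 1 on replicates 2, 4, 5 and 7. The deposited value of a spot is the log2 of the ratio between its channels. For arrays with adults in channel 1 the sign was changed, giving a turned ratio, and each array was centred on the median of its gene spots. No source used here states which channel was the numerator, so a positive turned ratio may stand for more RNA in larvae or for more RNA in adults, and no stage is attached to either side. A level in whole animals cannot tell fewer cells of a type from less RNA per cell. Values are means ± SD of the turned log2 ratio over the 8 arrays unless stated.

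Fly larvae feed and grow, and at metamorphosis most larval tissues are broken down while the adult body is built. Whole-animal RNA of larvae and adults therefore differs widely, in gut, cuticle, muscle, eye and gonad among others. As markers of such tissues, 14 of 14 measured gut genes were past the limma threshold (adjusted p of 0.05) on the negative side (median -2.95). On the positive side were 7 of 9 flight muscle genes (median 1.03), 6 of 9 testis genes (1.81), 5 of 8 compound eye genes (0.63) and 6 of 10 pupal and adult cuticle genes (0.78), with 1 cuticle gene on the negative side. Of 5 larval glue and serum genes, 1 was called positive and 2 negative (median -0.35, from -2.38 to 4.3). Over all genes, limma called 3110 positive (29.2%) and 2967 negative (27.8%). With arrays centred on all spots these were 2059 and 3707, and with values as deposited 1040 and 6059, since the median of all genes then moved to -0.15 and -0.45. As deposited, the positive and negative counts were 5 and 1 for flight muscle, 6 and 1 for testis, 3 and 1 for eye, 5 and 3 for cuticle, and 1 and 4 for larval glue and serum (median -0.79). All 51 chosen genes were past the threshold, which follows from how they were chosen.

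The mean ratios of the 51 genes ran from 2.00 to 5.17, with a median of 2.60. There were 3 genes at 4 or more, 10 between 3 and 4, 15 between 2.5 and 3, and 23 between 2 and 2.5. Single array values ran from 0.95 to 6.22. In 18 genes all 8 arrays were at 2 or more, and in 33 at least 1 array was under 2.

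**Figure D1:**
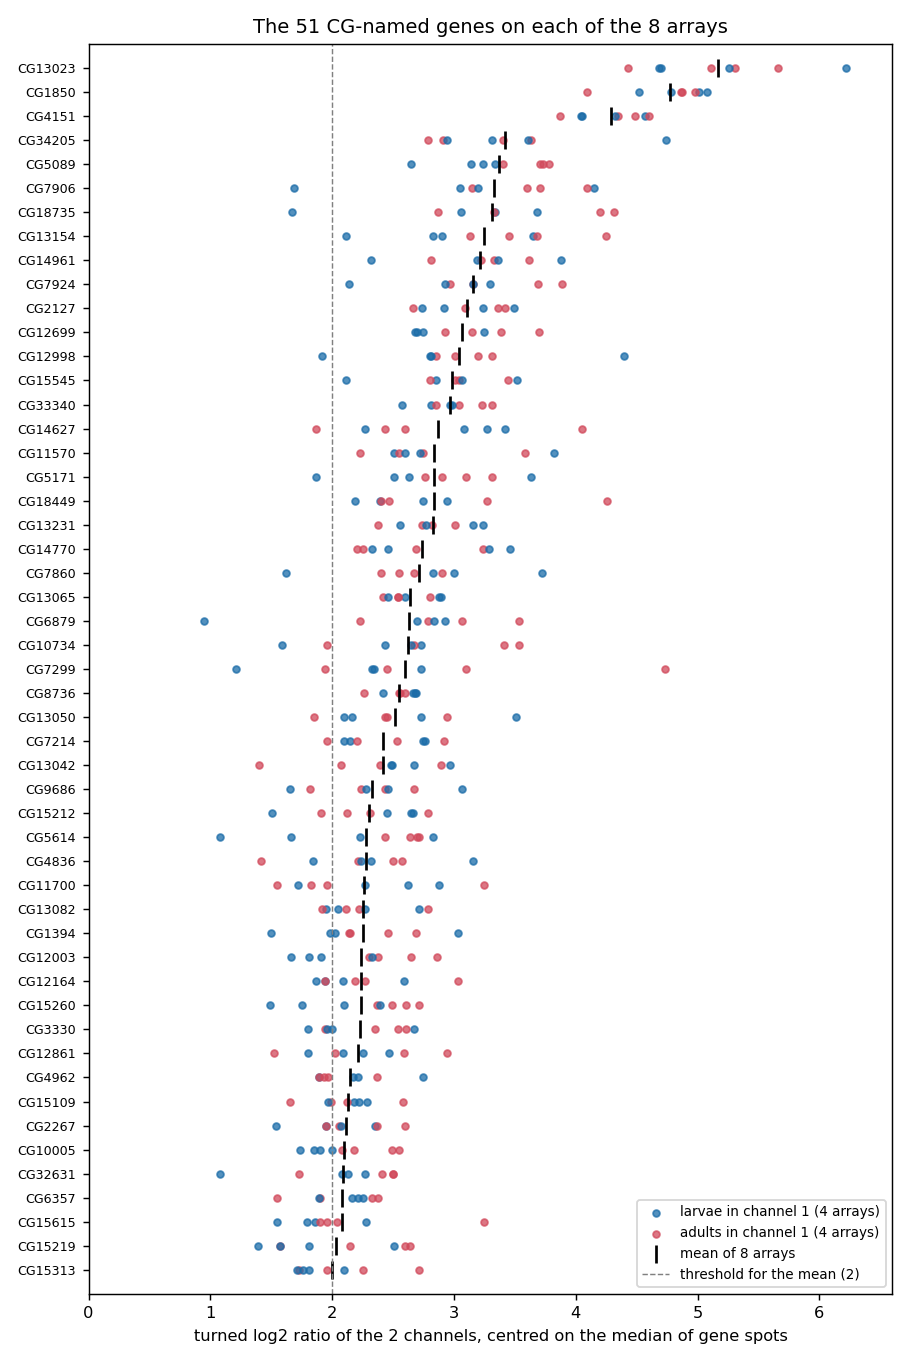
Turned log2 ratio (x axis) of each of the 51 CG-named genes (rows, by falling mean), with 1 point per array coloured by whether larvae or adults were in channel 1, a black tick at the mean and a dashed line at the threshold of 2. All points lie above 0, the lowest being CG6879 on replicate 1 at 0.95 and the highest CG13023 on replicate 3 at 6.22.

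The largest ratio among all 10658 genes belonged to CG13023. Its values were 4.68, 6.22, 4.70 and 5.26 on the arrays with larvae in channel 1, and 4.43, 5.66, 5.11 and 5.31 on those with adults in channel 1. The values of both orientations overlapped, and the mean of 5.17 ± 0.58 is a 36.0-fold ratio. The deposited ratios are exact ratios of whole numbers, which can be recovered down to common factors. For CG13023 they were 45634 over 835 on replicate 3, the largest ratio, and 4463 over 262 on replicate 2, the smallest. On replicate 1 its larger number, 47223, was the largest recovered on that array. Whether signal this high affected the ratio was not tested.

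CG1850, on chromosome arm 2R, followed at 4.77 ± 0.33. It gave 5.01, 5.08, 4.52 and 4.78 with larvae in channel 1 and 4.09, 4.87, 4.98 and 4.86 with adults in channel 1, so replicate 2 was the low array. CG4151, on the X chromosome, was the most even of the first 3 genes at 4.29 ± 0.27. Its arrays gave 4.04, 4.57, 4.32 and 4.05 with larvae in channel 1 and 3.87, 4.35, 4.60 and 4.49 with adults in channel 1. The next mean in the set was 3.42 ± 0.62, for CG34205. The lowest array of CG1850 (4.09) and the lowest of CG4151 (3.87) lay below the highest of CG34205 (4.74), which was on another array, replicate 3. Compared within each array, CG1850 lay above CG34205 throughout. CG4151 lay below CG34205 on replicate 3 alone (4.57 against 4.74).

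A few of the 51 genes have a known product. CG5171, a trehalose-6-phosphate phosphatase of the synthesis of the blood sugar trehalose, stood at 2.84 ± 0.54, from 1.87 on replicate 1 to 3.63 on replicate 3. CG4836, listed with the older name SODH-1 of a sorbitol dehydrogenase, stood at 2.28 ± 0.51, from 1.42 on replicate 2 to 3.16 on replicate 3. CG7860, an asparaginase-like enzyme, stood at 2.71 ± 0.59 and ran over the same arrays as CG5171, from 1.62 on replicate 1 to 3.72 on replicate 3. Among the proteases, CG18735 carries the older name SP22 and stood at 3.31 ± 0.83. It was at 1.67 on replicate 1, while its other 7 arrays lay between 2.87 and 4.31. CG6357, a cysteine protease gene, was at 2.08 ± 0.28, between 1.55 and 2.38.

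CG11700 is listed with the older names Ub and poly-ub, and encodes ubiquitin, the protein tag that marks other proteins for the proteasome. Its ratio was 2.26 ± 0.60, from 1.55 on replicate 4 to 3.25 on replicate 7. It was the brightest spot of the set, at percentile 99.9 of genes, with medians over arrays of 22271 and 6406 for its whole numbers on the positive and the negative side. Ubiquitin genes are nearly identical in sequence, so its spot may share signal with other ubiquitin genes and the value is uncertain for this gene alone.

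A pair of the CG numbers no longer stand for a gene of their own in the RefSeq gene table (Release 6). CG15313 is now part of Cht6, a chitinase gene, and was the gene nearest the threshold at 2.00 ± 0.34. The spots under 2 other symbols of the same current gene gave lower ratios, 0.67 ± 0.24 for CG15314 and 0.27 ± 0.52 for Cht6. In the fit of all genes CG15314 passed the threshold (limma adjusted p = 0.000158, not past it as deposited, at 0.23) and Cht6 did not (adjusted p = 0.0913). The lowest array of CG15313 was 1.71 and the highest of either other symbol was 1.13, so its arrays did not overlap theirs. CG6879 is now part of CG42331 and showed a wider gap. It stood at 2.63 ± 0.77, between 0.95 and 3.53, while the spot listed as CG42331 stood at 0.06 ± 0.49, between -0.79 and 0.89 (adjusted p = 0.743).

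Spots of 1 symbol also differed. Of the 51 genes, 47 had 1 spot and 4 had 2, and the difference between the first and the second spot was tested with limma over all 1231 genes with at least 2 spots. It passed an adjusted p of 0.05 in 4 of these 4 genes, against 42.3% of the 1231. The difference was largest for CG12164, whose first spot gave 1.46 ± 0.41 and whose second gave 3.02 ± 0.50, a first minus second difference of -1.56 ± 0.46 (limma adjusted p = 8.90e-05) with 1 sign on 8 of 8 arrays. The first spot alone, between 0.95 and 2.07, would not have met the threshold for the mean. For CG15109 the first spot gave 1.80 ± 0.36 and the second 2.45 ± 0.27 (difference -0.65, adjusted p = 0.00152, 8 of 8 arrays). For CG8736 they gave 2.24 ± 0.21 and 2.87 ± 0.22 (difference -0.63, adjusted p = 0.000956, 8 of 8 arrays), and for CG12699 3.32 ± 0.44 and 2.82 ± 0.37 (difference 0.50, adjusted p = 0.00657, 7 of 8 arrays). In all 4 genes the spot with the larger whole number on the positive side had the larger ratio, with medians of 4863 against 1057.5 for CG12699 and 5560 against 1082.5 for CG12164. That number is itself part of the ratio, so this is partly built in, and it was not counted over the 1231 genes. The median absolute difference between spots was 0.64 in these 4 genes and 0.26 over the 1231. The 4 genes were chosen for a large ratio and the 1231 were not, so neither comparison is matched for the size of the ratio.

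**Figure D2:**
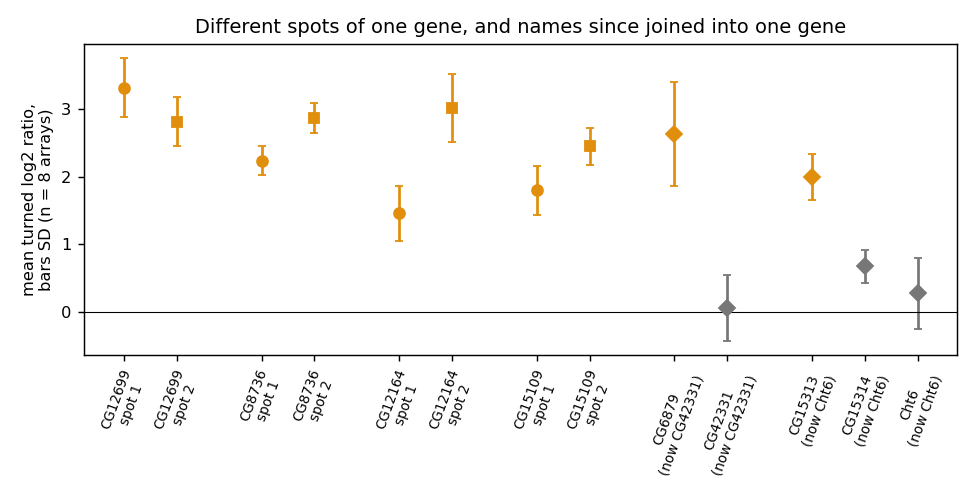
Mean turned log2 ratio (y axis, bars SD, n = 8 arrays) of both spots of the 4 genes with 2 spots (circles first, squares second) and of the symbols since joined into CG42331 and Cht6 (diamonds, orange for the CG-named genes of the set, grey for the other symbols). CG6879 lies at 2.63 against CG42331 at 0.06, CG15313 at 2.00 against Cht6 at 0.27, and the CG12164 spots at 1.46 and 3.02.

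The older names in the gene table record which sequence collections held a gene. Sequence names of the form anon-WO0140519 were carried by 7 of the 51 genes (13.7%) and by 188 of 10615 matched genes (1.77%). The 10615 also include genes with another name. Shares over CG-named genes alone were not counted, here or for the name groups below. The 7 were CG5089 (3.37 ± 0.38), CG2127 (3.11 ± 0.31), CG12699 (3.07 ± 0.37), CG4836, CG1394 (2.25 ± 0.47), CG3330 (2.23 ± 0.35) and CG2267 (2.11 ± 0.33). Of the other 181 genes with such a name, limma called 106 positive and 27 negative, and their median was 0.41 against -0.01 for all genes. Centred on all spots these were 82 and 35 (median 0.27), and as deposited 57 and 53 (median -0.03). Over all 10658 genes the counts were then 2059 and 3707 (median -0.15), and 1040 and 6059 (median -0.45). Clone names of the form bs, from a testis cDNA library, were carried by 4 of the 51 (CG2127, CG12699, CG4836 and CG1394; 7.84%) and by 76 of the 10615 (0.72%). Of the other 72, 40 were positive and 7 negative, and 22 and 20 as deposited. An AT clone name, from adult testis, was carried by CG33340 (2.97 ± 0.23), which is 1.96% of the 51 against 1.52% of the 10615.

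Clone names of the form RH, from adult heads, were carried by CG12998 (3.04 ± 0.69), CG13065 (2.64 ± 0.19), CG8736 (2.55 ± 0.15) and CG9686 (2.33 ± 0.45), which is 7.84% of the 51 against 1.42% of all matched genes. The other 147 genes with an RH name were split, 33 positive and 26 negative (median 0.00). As deposited they gave 14 and 82, where all 10658 genes gave 1040 and 6059. GH names, also from adult heads, were on CG12699, CG33340 and CG1394, 5.88% of the 51 against 2.61%. RE names, from embryos, were on CG7299, CG15212 and CG10005, 5.88% against 2.16%. An LP name, from larvae and early pupae, was on CG15219 (2.03 ± 0.51), 1.96% against 0.64%. Name groups were chosen after their counts were seen, and a name depends on which libraries were sequenced, so no test was made.

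Several of the 51 genes lie near each other in the gene order. On arm 3L, 4 of them fell within 15 neighbouring genes, in the order CG13065, CG13050, CG4962 and CG13042. CG13065 stood at 2.64 ± 0.19, between 2.42 and 2.89, and its direct neighbour CG13050 at 2.52 ± 0.53, between 1.85 and 3.51. CG4962 was at 2.15 ± 0.30 and CG13042 at 2.42 ± 0.50. The 10 other measured genes among them ranged from -0.43 ± 0.27 (CG13045) to 0.75 ± 0.31 (CG13043), and 1 further gene had no value here. Just outside the stretch, CG13062 was at 1.58 ± 0.43 and Nplp3, a neuropeptide precursor gene, at -0.48 ± 0.31. Of the 10 genes within the stretch limma called 4 positive, 1 negative and 5 neither, against 29.2% positive and 27.8% negative over all genes. All 10 carry a CG number, so that none of them reached 2 follows from the choice of genes.

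**Figure D3:**
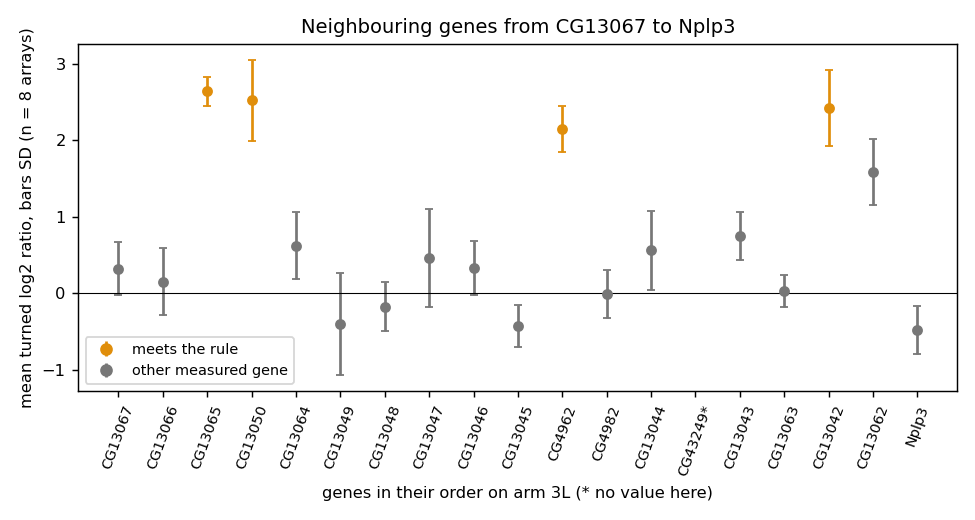
Mean turned log2 ratio (y axis, bars SD, n = 8 arrays) of neighbouring genes in their order on arm 3L (x axis), with genes of the CG-named set in orange and other measured genes in grey. CG13065, CG13050, CG4962 and CG13042 lie between 2.15 and 2.64, and the 10 measured genes between them lie between -0.43 and 0.75.

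Elsewhere on 3L, CG7924 (3.16 ± 0.53) and CG7906 (3.33 ± 0.78) were separated by 1 gene without a value here, and CG7768, the gene before them, stood at 1.22 ± 0.45. Both CG7924 and CG7906 had their lowest array on replicate 1, at 2.14 and 1.69. On 2R, CG18449 (2.84 ± 0.67) and CG2127 (3.11 ± 0.31) were direct neighbours, and the next gene, CG8701, stood at 1.59 ± 0.68. CG18449 was the dimmest of the 51, at percentile 7.8 of genes. Also on 2R, CG1850 (4.77) and CG12164 (2.24 ± 0.39) had 3 genes between them, at -0.27 ± 0.27 (Br140), 0.18 ± 0.24 (Incenp) and -0.11 ± 0.46 (pwn).

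The remaining genes have no product stated here. Between 3 and 4 were CG34205, CG13154 (3.25 ± 0.65) and CG14961 (3.21 ± 0.48). CG34205 gave 3.31, 4.74, 2.94 and 3.61 with larvae in channel 1 and 2.91, 3.40, 3.63 and 2.79 with adults in channel 1, so replicate 3 was its high array. Between 2.5 and 3 were CG15545 (2.98 ± 0.43), CG14627 (2.87 ± 0.71), CG11570 (2.84 ± 0.56), CG13231 (2.83 ± 0.29), CG14770 (2.74 ± 0.51), CG10734 (2.62 ± 0.65) and CG7299 (2.60 ± 1.02). CG11570 carries the older name mlncRNA68E3. Between 2 and 2.5 were CG7214 (2.42 ± 0.36), CG15212 (2.30 ± 0.44), CG5614 (2.28 ± 0.62), CG13082 (2.25 ± 0.33), CG12003 (2.24 ± 0.41), CG15260 (2.24 ± 0.43), CG12861 (2.21 ± 0.45), CG10005 (2.10 ± 0.29), CG32631 (2.09 ± 0.48) and CG15615 (2.08 ± 0.52).

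Just inside the threshold of 2 were CG32631, CG6357, CG15615, CG15219 and CG15313, from 2.09 to 2.00. Just outside it were CG14515 (1.99 ± 0.32), CG3323 (1.99 ± 0.40), CG3213 (1.96 ± 0.42), CG13907 (1.94 ± 0.50) and CG13081 (1.93 ± 0.31), all positive on the 8 arrays. These genes lay closer to each other than the SD of any of them. No CG-named gene reached 2 without being positive on all 8 arrays (0 genes).

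The spread between arrays, given as a description, had a median SD of 0.47 in the 51 genes against 0.30 for all genes. It was smaller than in the 53 CG-named genes of the negative side, where the median SD was 0.75, and close to the 0.45 of the 74 otherwise named genes of the positive side. Of the 51, 8 had an SD under 0.3, 20 between 0.3 and 0.5, and 23 of 0.5 or more. The most even genes were CG8736 (0.15), CG13065 (0.19) and CG33340 (0.23). The most uneven was CG7299, with values of 1.21, 2.73, 2.33 and 2.34 with larvae in channel 1 and 1.94, 4.73, 3.10 and 2.45 with adults in channel 1. CG18735 (0.83) and CG7906 (0.78) came next.

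**Figure D4:**
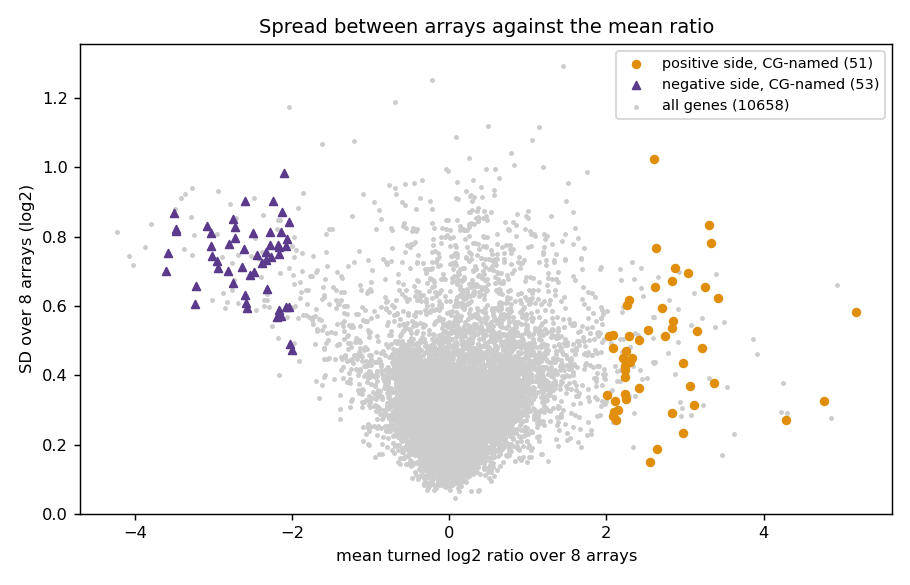
SD over the 8 arrays (y axis, log2) against the mean turned log2 ratio (x axis) for all 10658 genes (grey), the 51 CG-named genes of the positive side (orange circles) and the 53 of the negative side (purple triangles). The orange points spread from 0.15 to 1.02, and the purple points from 0.47 to 0.99.

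The arrays did not measure the set alike. Its median was 2.09 on replicate 1, 2.30 on replicate 2, 2.93 on replicate 3, 2.67 on replicate 4, 2.75 on replicate 5, 2.65 on replicate 6, 2.71 on replicate 7 and 2.42 on replicate 8. Replicate 1 was the lowest array for 20 of the 51 genes and replicate 2 for 13. Replicate 3 was the highest for 20 and replicate 7 for 15. The arrays also differed in the spread of all genes. Their SD between genes was smallest on replicates 1 (0.57) and 2 (0.61) and largest on replicates 7 (0.94) and 3 (0.87). Such counts per array were not made over all genes, so whether they are particular to the set is unknown. The medians of the 53 negative-side genes had a wider range, from -3.25 on replicate 4 to -1.51 on replicate 7, and on replicate 7 all 53 were above their own mean, nearer 0. On that same array 36 of the 51 genes were above their own mean.

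**Figure D5:**
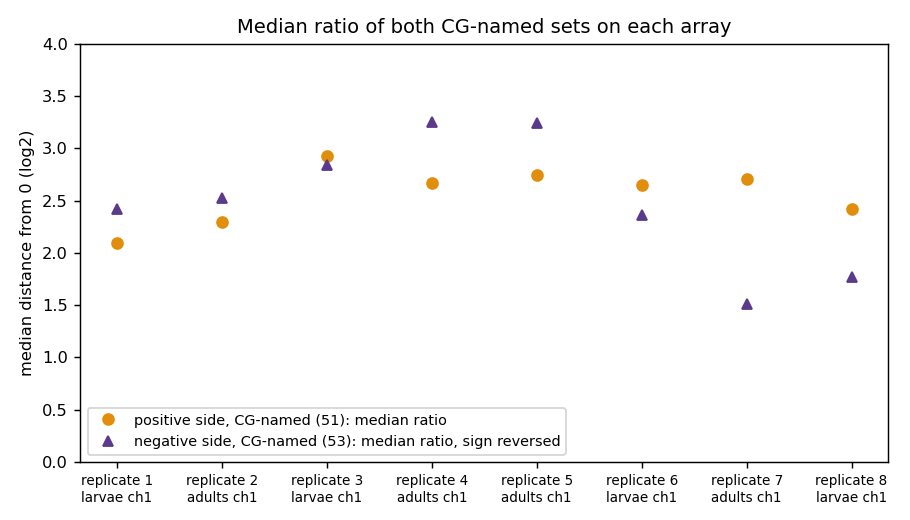
Median turned log2 ratio on each array (x axis) of the 51 CG-named genes of the positive side (orange circles) and, with the sign reversed, of the 53 of the negative side (purple triangles), as distance from 0 on the log2 scale (y axis). The positive-side medians lie between 2.09 and 2.93, and those of the negative side between 1.51 and 3.25.

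Brightness moved with this spread. It was taken as the mean log2 of both recovered whole numbers of a spot, a lower bound, and 36 of the 51 genes were above the median of all genes while 15 were below it. The 36 brighter genes had a median SD of 0.51 and the 15 dimmer ones 0.36. On replicate 1 the brighter genes lay a median of -0.53 from their own mean, and the dimmer ones -0.16. Across the 51 genes, which share the same 8 arrays, Spearman's rho between brightness and SD was 0.51, against 0.12 across all 10658 genes. The part of brightness in the spread was not tested. The whole number on the negative side had a median over arrays of at least 151.5 in each of the 51 genes. A median under 100 there was rare over all genes too, in 26 of 10658 (0.244%). Recovered numbers on single arrays could be lower, as for CG5089 on replicate 2, at 242 over 29. Common factors are lost from such numbers, so they are lower bounds and need not mean a dim spot.

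The labelling orientation was the one contrast of the design that the choice of genes did not use. It asks whether the turned ratio of a gene differed between the 4 arrays with larvae in channel 1 and the 4 with adults in channel 1. No gene passed an adjusted p of 0.05 in limma, 0 of the 51 and 0 of 10658 (0.0%), and the smallest adjusted p was 0.913. At an unadjusted p of 0.05 there were 5 of the 51 genes (9.80%) against 481 of all genes (4.51%). Both shares depended on the setting. In the 51 genes and in all genes they were 27.5% and 6.23% with values as deposited, 23.5% and 5.66% without replicate 3, and 21.6% and 3.77% without replicate 2. They were 15.7% and 6.37% after loess against brightness, and 5.88% and 2.0% centred on all spots. The share in the 51 genes was the lower one with arrays scaled to one spread (3.92% and 9.91%), under quantile normalization (9.80% and 10.0%) and without replicate 7 (11.8% and 14.6%). The differences, larvae in channel 1 minus adults in channel 1, ran from -0.90 for CG7299 to 0.47 in the 51 genes, with standard errors from 0.16 to 0.52. They were negative in 31 of the 51 genes and in 51.5% of all genes.

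The 5 genes were CG12003, CG5089, CG15260, CG10005 and CG13154, all lower with larvae in channel 1. CG12003 averaged 1.93 ± 0.29 with larvae in channel 1 and 2.55 ± 0.26 with adults in channel 1 (SD, 4 arrays each; limma unadjusted p = 0.0101). CG5089 gave 2.65, 3.14, 3.34 and 3.24 with larvae in channel 1 and 3.40, 3.71, 3.78 and 3.73 with adults in channel 1, without overlap. CG10005 also showed no overlap, with 1.74 to 2.00 against 2.08 to 2.55. Such a lack of overlap was found in 2 of the 51 genes and in 4.03% of all genes. None of these differences passed adjustment, and a miss of the threshold does not show that the channels measured a gene alike.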

How the data were processed

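The deposited value of each of 20000 spots on 8 arrays is a log2 ratio of the 2 channels. Per the labels' protocols, arrays were scanned with GenePix and quantified with Spot version 2.0. Background handling, filters and the genome build are not given in the labels used here, and no gene coordinates are printed. The unit was read from the values, each a ratio of whole numbers within a relative tolerance of 1e-13, and the deposited log2 values were not centred on 0 on each array. The probe table gave 1 gene to 12246 spots, several to 86, and 7668 were unnamed here. The RefSeq table of Release 6 was used for names and gene order. It matched 49 of the 51 genes by gene ID and 2 by older name, and of 4297 CG-named genes matched by ID, 0 had changed symbol.

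Spots were centred, turned and averaged per gene. The limma fit (version 3.58.1, R 4.3.3) had a stage and an orientation term and Benjamini-Hochberg adjustment over 10658 genes. p-values measure technical spread alone, with precision limited by having 8 arrays. The fit was tested on simulated data. Named genes were the 15 largest and 5 smallest means, the 3 largest and 3 smallest SDs, orientation and spot differences past the threshold, changed symbols and runs of neighbours. A part of the rule on protein identity was not applied. Other members are listed with their means. Neighbours were taken as at most 8 genes apart, a window set after seeing the data. The members, tissue lists and rules were chosen with earlier results of these data known. The probes' specificity among similar genes is unknown here. Alternatives covered centring, scaling, brightness, spots and single arrays. Figures used Python 3.11.15 and matplotlib 3.10.9.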

Additional observations from a re-analysis of the deposited data

Results flagged for a closer look

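Of the 29 genes named by rule, 3 had 1 array far from the other 7, by Dixon's test at 95%. Over all 51 genes of the set the count was also 3. Chance gives such a gap in about 1 of 20 groups, so a few among 51 genes could arise by chance. The 29 also included genes named for a large SD, CG7906 among them, and a far array raises the SD. CG7906 was at 1.69 on replicate 1, with its other arrays at 3.05 or more. CG34205 was at 4.74 on replicate 3, with its other arrays at 3.63 or less. CG15615 was at 3.25 on replicate 7, with its other arrays at 2.28 or less.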

How the results depend on the processing

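The count of genes that met the rule was 51. It was 28 with values as deposited, 115 with a mean of 1.5 or more and 28 with a mean of 2.5 or more. It was 43 centred on all spots, 65 with arrays scaled to one spread, 46 without the dimmest 25% of spots and 49 by current symbol. Under quantile normalization, loess and the spot of smallest residual SD it was 51, and with 1 array left out 49 to 62. An equal count was not always the same genes. Of the original 51, 50 were kept under loess, 50 with the spot of smallest residual SD and 48 without replicate 7. The median of the 51 genes, 2.60, was 2.17 as deposited and 2.51 to 2.67 with 1 array left out, and all 51 (46 without the dimmest 25%) were positive on every array under each of these 15 settings. Stage calls on the positive side were 3110, against 2059 centred on all spots and 1040 as deposited. Those on the negative side were 2967, against 6059 as deposited. No orientation call was made for any gene under these settings, and an unadjusted p under 0.05 was found in 3.92% to 27.5% of the 51 genes and in 2.0% to 14.6% of all genes. Spot differences passed in 4 genes, and in 1 without the dimmest 25% of spots, which left 1 of the 4 genes with 2 spots. Of 431 values of named genes under the alternatives, 407 moved by less than 1 SD, 24 by more and 0 changed sign. With 1 array left out or arrays scaled to one spread, the rule also fixed the sign of these values. CG12164 fell to 1.46 with its spot of smallest residual SD. Larvae and adults are already paired within each array by the ratio. No paired analysis was possible because, between the orientations, no replicate number is shared that could serve as a further block.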
